A study of Rattus norvegicus with 64 samples.

Results

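Transcripts of the collagen genes were followed in 64 rat lung libraries that fall into 12 groups. The genes were taken as every symbol in the count tables made of Col, a type number, the letter a and a chain number, with 10 or more counts summed over the 64 libraries. Of 30045 symbols, 44 had such a name and all 44 passed that minimum. By the usual classes, 11 of them code for chains of fibrillar collagens, 8 for collagens of basement membranes, and 25 for beaded filament, fibril-associated, short-chain network, anchoring fibril, transmembrane and other collagens.

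The animals were Sprague-Dawley rats, all male and of this outbred strain, of about 200 to 250 g, kept 2 to a cage on one rodent diet. All of them spent 6 hours a day, on 4 days, in a whole-body inhalation chamber. The chamber held dust of fracking sand, the sand pumped into wells in hydraulic fracturing, or filtered air. In the 10 mg/m3 study, lungs were taken 1 day after exposure (5 dust rats and 5 air rats), 7 days after (5 and 5) and 27 days after (4 and 4). In the 30 mg/m3 study, each of these days had 6 dust rats and 6 air rats. The air rats of one study were not those of the other, so dose and study cannot be told apart. Each day had its own rats, and those of later days were also older, so time after exposure and age cannot be told apart. RNA came from a piece of whole lung, in which fewer cells of a type and less RNA per cell cannot be told apart.

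Collagens are trimers of alpha chains wound into a triple helix and assembled outside the cell. Fibrillar collagens, chiefly types I, III and V, give airway, vessel and alveolar walls their tensile strength, and type IV collagen forms the network of basement membranes, among them the one that alveolar epithelium and capillaries share. Beaded filaments of type VI and fibril-associated collagens tie these structures to each other and to cells. In the lung they are made mainly by fibroblasts, smooth muscle cells, pericytes and, for type IV, endothelial and epithelial cells, and inhaled crystalline silica is known for the collagen-rich nodules it causes with time.

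The libraries held 3420235 to 12359518 counts in genes (median 8716414), and collagen genes took 0.731% to 1.90% of them. Levels are given in CPM, counts scaled to a common library size, separately in each study, so values set side by side over both studies also carry a difference in scaling. Marker genes of lung were high in every library, with sums of 9338 to 17461 CPM for alveolar type 2 cells and 1821 to 3339 CPM for endothelium, while heart muscle markers ran from 60.6 to 1925 CPM. The shallowest library, from dust rat 27 of day 1 at 10 mg/m3, also had the highest collagen share. Air rats 51 and 53 of day 1 at 30 mg/m3 had counts for 21889 and 22077 symbols, against 17873 to 19731 in the other libraries. Values without these rats stand beside results that they move most.

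Reads of a few collagens made up most of the signal. Col3a1, the single chain of type III collagen, took 29.6% of all collagen counts, and with Col4a1, Col6a3, Col4a2, Col5a2 and Col6a5 it made up 68.03%. These are shares of reads and not of molecules, since longer transcripts give more reads and no transcript lengths were used. Col4a1 and Col4a2, the chains of the type IV trimer found in most basement membranes, took 11.3% and 7.91%. Col1a1, the major chain of type I collagen, took 4.92%. At the other end, 9 genes had too few counts for the test in either study. These were the cartilage collagens Col2a1, Col9a1, Col9a3 and Col10a1, and Col1a2, Col22a1, Col25a1, Col26a1 and Col28a1, with 44 to 237 counts in all 64 libraries together. Markers of cartilage were near 0 as well, with a summed level of 0.145 to 2.96 CPM over the 5 of 7 listed genes that the tables hold. Col23a1, a transmembrane collagen, passed the count filter only at 30 mg/m3, so 34 genes were tested at 10 mg/m3 and 35 at 30 mg/m3.

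Col1a2, the second chain of type I collagen, could not be read from these tables. Its row held 116 counts in all, 68 of them in 1 library, against 268055 counts for Col1a1, its partner in the type I trimer. A further row named Col1a2-2, which the rule does not take in, held 9968 counts and ran from 2 to 1444 counts between libraries. What that suffix stands for is not given in the sources used here, and whether both names share reads was not tested. Type I collagen is therefore followed through Col1a1 alone.

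Collagen genes also varied more between rats of one group than most genes did. The median biological coefficient of variation of the tested collagens was 20.98% at 10 mg/m3 and 19.4% at 30 mg/m3, against 13.6% and 12.7% over all genes tested. Col4a5, a chain of type IV trimers in lung and kidney, was the steadiest of the tested genes over all 64 libraries, where its highest level was 1.72 times the lowest. Col12a1, which binds along type I fibrils, followed with a ratio of 1.82. Col1a1 spanned a ratio of 8.03 and Col4a1 one of 4.80. Col15a1, a basement membrane collagen of the multiplexin family, lay anywhere from 0 to 18.2 CPM.

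Across the 12 groups, means are given for further members of each class as a description, since their spread within a group often spans the difference. Col5a1, the partner of Col5a2 in type V collagen, had its highest group mean, 206 ± 122 CPM in dust rats of day 1 at 10 mg/m3 (SD, n = 5), and its lowest, 131 ± 10.7 CPM in air rats of day 27 at 10 mg/m3 (SD, n = 4). Col5a2 had its highest group mean, 639 ± 49.6 CPM in air rats of day 7 at 10 mg/m3 (SD, n = 5), and its lowest, 469 ± 12.3 CPM in air rats of day 27 at 30 mg/m3 (SD, n = 6). Both belong to the fibrillar class, and type V sits inside type I fibrils. Col6a1 had its highest group mean, 542 ± 147 CPM in dust rats of day 1 at 10 mg/m3 (SD, n = 5), and its lowest, 407 ± 60.3 CPM in dust rats of day 1 at 30 mg/m3 (SD, n = 6). Col6a2, which joins it in the type VI trimer, had its highest group mean, 484 ± 139 CPM in dust rats of day 1 at 10 mg/m3 (SD, n = 5), and its lowest, 297 ± 52.8 CPM in dust rats of day 1 at 30 mg/m3 (SD, n = 6). The third chain of that trimer is Col6a3. Col6a3 had its highest group mean, 1109 ± 79.7 CPM in dust rats of day 7 at 10 mg/m3 (SD, n = 5), and its lowest, 767 ± 147 CPM in dust rats of day 1 at 30 mg/m3 (SD, n = 6). Col8a1, a network collagen of vessel walls, had its highest group mean, 12.1 ± 2.32 CPM in air rats of day 27 at 10 mg/m3 (SD, n = 4), and its lowest, 8.03 ± 1.14 CPM in dust rats of day 1 at 30 mg/m3 (SD, n = 6). The single rat behind the wide SD of dust rats on day 1 at 10 mg/m3 is described with the dust comparisons. Col18a1, a multiplexin of vessel and epithelial basement membranes whose end fragment is endostatin, had its highest group mean, 66.8 ± 28.4 CPM in dust rats of day 1 at 10 mg/m3 (SD, n = 5), and its lowest, 42.5 ± 11.4 CPM in air rats of day 7 at 10 mg/m3 (SD, n = 5). Col14a1, a fibril-associated collagen, had its highest group mean, 93.5 ± 15.9 CPM in air rats of day 7 at 30 mg/m3 (SD, n = 6), and its lowest, 64.5 ± 6.23 CPM in air rats of day 27 at 30 mg/m3 (SD, n = 6).

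Dust was set against air of the same study and day to see whether collagen transcripts differed in the exposed lungs. No collagen gene passed the test at either dose on any day, and class medians lay on both sides of 0 over the comparisons. On day 27 at 10 mg/m3, all 9 fibrillar collagens lay above 0, from 0.049 to 0.24, beside 46.9% of all genes. The 9 were measured in the same rats, and whether a class lay more to 1 side than all genes was not tested. With edgeR's quasi-likelihood test and Benjamini-Hochberg adjustment over all genes, 0 of 34 collagens passed at 10 mg/m3 on days 1, 7 and 27, beside 0.128%, 0% and 0% of all genes tested. In the 30 mg/m3 study, 0 of 35 passed on days 1, 7 and 27, beside 0%, 0.0643% and 0% of all genes. DESeq2 also called 0 in each of the 6 comparisons. At an unadjusted p under 0.05 there were 5, 1 and 1 collagens at 10 mg/m3 on days 1, 7 and 27, beside 18.9%, 3.96% and 2.36% of all genes, and 6, 1 and 3 at 30 mg/m3, beside 15%, 4.99% and 7.34%. Over the 3 days together, 0 passed at 10 mg/m3 (beside 0.0319% of all genes; 1 at an unadjusted p under 0.05, beside 9.27%) and 0 at 30 mg/m3 (beside 1.20%; 5 at an unadjusted p under 0.05, beside 17.8%). A test of whether the dust effect depended on the day also called 0 collagens in each study, beside 0% of all genes in both, with 2 and 3 at an unadjusted p under 0.05 at 10 and 30 mg/m3, beside 7.28% and 4.42%. DESeq2 called 0 in these 4 tests too.

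**Figure D1:**
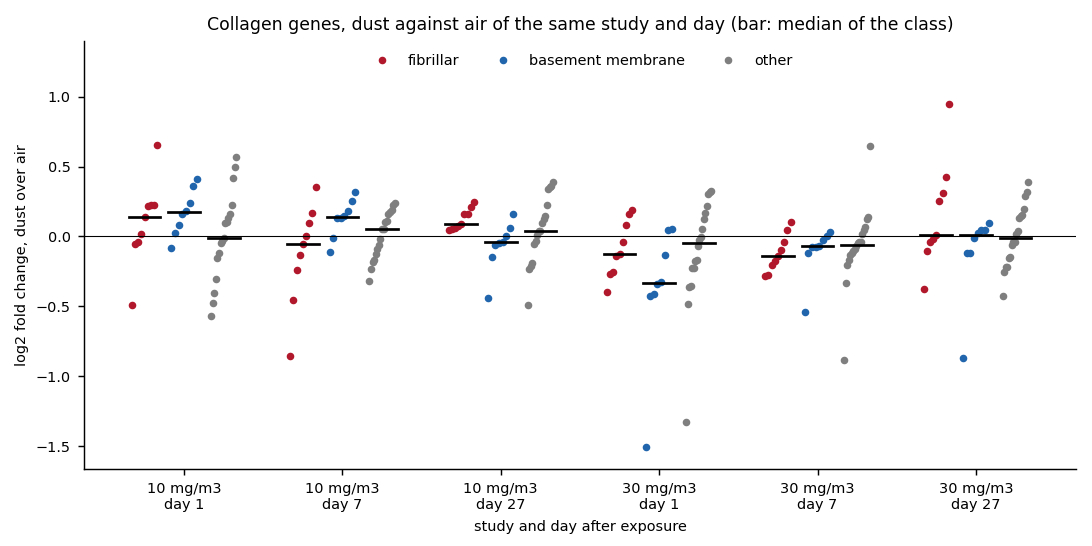
Log2 fold change of each tested collagen gene, dust over air of the same study and day (vertical axis), in the 6 comparisons (horizontal axis), by class, with a bar at the median of the class. At 10 mg/m3 on day 1 and at 30 mg/m3 on day 1 the medians of all collagens stood at 0.10 and -0.13, and no single gene passed the test in any comparison.

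Among the fibrillar collagens, Col3a1 at 10 mg/m3 stood at 6514, 3497, 3984, 3275 and 3815 CPM in the 5 dust rats of day 1, against 2568, 3496, 3274, 4192 and 4578 CPM in the 5 air rats. On day 7 it was at 3186, 3454, 2432, 3063 and 3372 CPM in dust rats, against 2509, 2541, 2772, 3270.5 and 2705 CPM in air rats. By day 27 it was at 2534, 2348, 2132 and 3143 CPM in dust rats, against 2659, 2844, 2291 and 2022 CPM in air rats. The groups overlapped on each day, and 1 dust rat of day 1, rat 27, lay far above the rest. The log2 difference was 0.22 ± 0.16 (SE) on day 1 (edgeR adjusted p = 0.475), and 0.0083 without rat 27 (adjusted p = 0.986). It was 0.17 ± 0.16 on day 7 (adjusted p = 0.996) and 0.049 ± 0.18 on day 27 (adjusted p = 0.9997).

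At 30 mg/m3, Col3a1 lay lower in dust rats on day 1, at 2447 to 3169.9 (median 2914) CPM, against 2433 to 4000.3 (median 3586) CPM in air rats. The 6 dust rats sat inside the range of the air rats, whose lowest value, 2433 CPM, belonged to rat 53. The difference was -0.27 ± 0.10 on the log2 scale (95% interval -0.48 to -0.062), with an unadjusted p of 0.0120 and an edgeR adjusted p of 0.249. Without air rat 53 the adjusted p was 0.0468, with a difference of -0.37. On day 7 the levels were 2725 to 3521 (median 2934) CPM in dust rats and 2628 to 3753 (median 3120.2) CPM in air rats, and on day 27 they were 1928 to 2669 (median 2361) and 2272 to 2503 (median 2421) CPM, a difference of -0.043 ± 0.10 and of -0.043 ± 0.10 (adjusted p = 0.967 and 0.989).

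Col1a1, which with Col1a2 builds the main fibrils of scar tissue, stood at 2117, 451, 570.0, 424 and 525 CPM in dust rats on day 1 at 10 mg/m3, against 264, 358, 356, 888 and 714 CPM in air rats. Rat 27 again gave the highest value. The log2 difference was 0.66 ± 0.39 with it (adjusted p = 0.369) and -0.067 without it (adjusted p = 0.933). On day 7 Col1a1 was at 531, 761, 464, 604 and 552 CPM in dust rats, against 378, 342, 288, 773 and 501 CPM in air rats (log2 difference 0.35 ± 0.39). On day 27 it was at 332, 388, 365 and 532 CPM in dust rats, against 448, 358, 310.4 and 334 CPM in air rats (0.16 ± 0.44). Both days left the groups overlapping, at adjusted p = 0.996 and 0.9997. In the other study the differences were -0.25 ± 0.21, -0.28 ± 0.21 and -0.019 ± 0.21 on days 1, 7 and 27, with adjusted p values of 0.547, 0.959 and 0.9995.

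**Figure D2:**
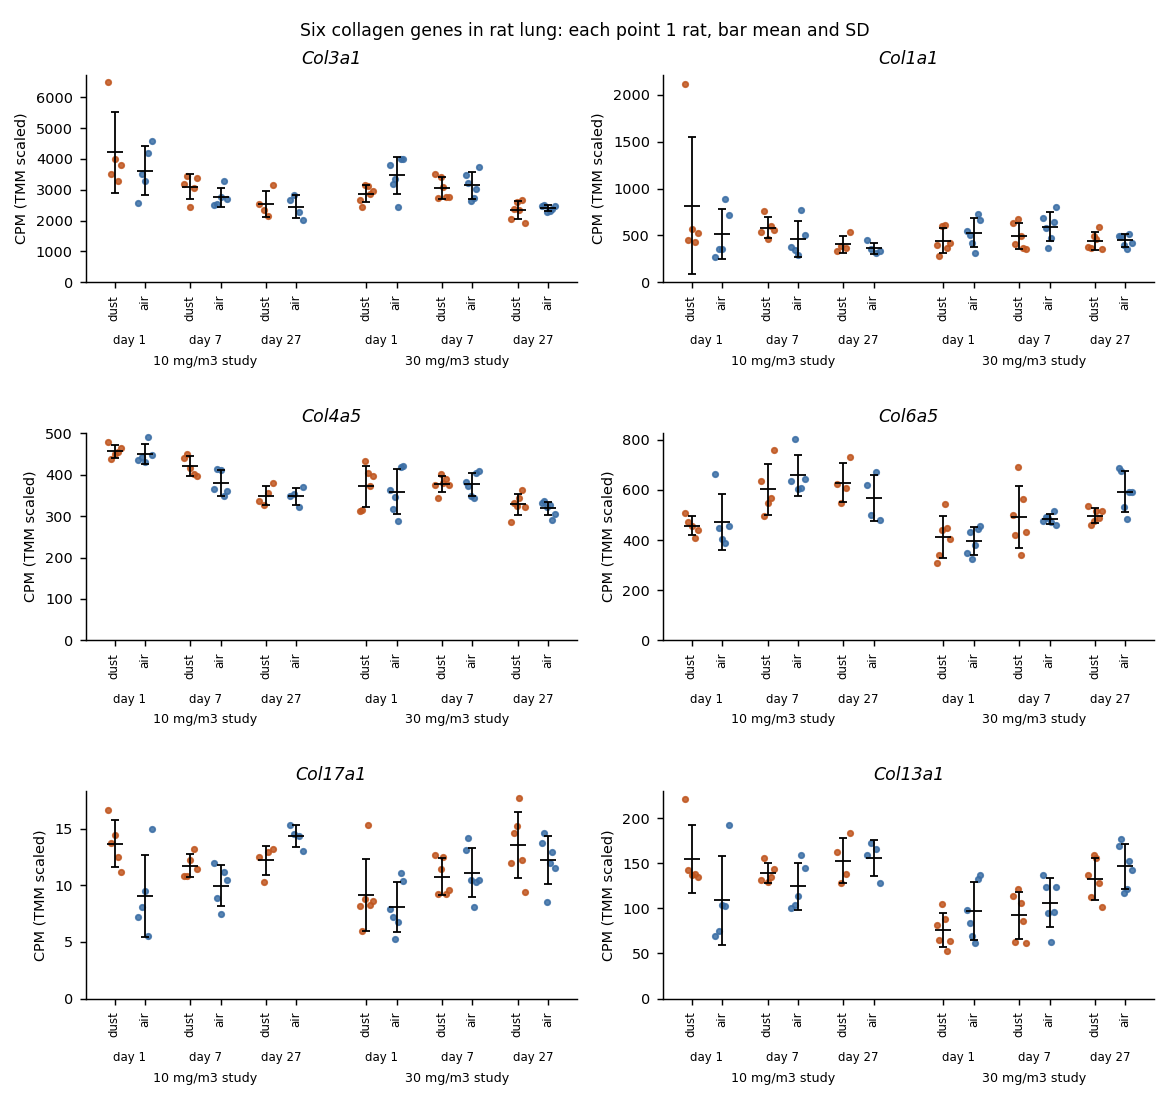
Level in CPM (vertical axis) of 6 collagen genes in every rat, dust (orange, left) and air (blue, right) by day and study, with a bar for the mean and whiskers for the SD. Col3a1 was lower at day 27 than at day 1 in both arms of both studies, while dust and air rats of the same day overlapped in each of the 6 genes shown.

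A pair of minor fibrillar chains gave the widest single differences of their class and did not pass either. Col11a2, a type XI chain best known from cartilage, was at 4.87, 5.73, 10.7, 12.97, 6.32 and 9.43 CPM in the 6 dust rats of day 27 at 30 mg/m3. In the 6 air rats it was at 4.15, 4.37, 3.97, 2.95, 4.01 and 6.16 CPM, so 1 air rat reached into the range of the dust rats. The difference was 0.95 ± 0.22 (95% interval 0.50 to 1.40), with an unadjusted p of 1.37e-04 and an edgeR adjusted p of 0.232. Leaving out each rat in turn kept the difference within 0.78 to 1.08 and the adjusted p between 0.0602 and 0.815. Summed cartilage markers overlapped, at 0.566 to 1.57 CPM in dust rats and 0.540 to 0.963 CPM in air rats. Col11a1, the other type XI chain, differed by -0.85 ± 0.44 at 10 mg/m3 on day 7 (adjusted p = 0.996) at a median level of 1.05 CPM, where a few counts set its value. Col24a1, a minor fibrillar collagen, differed by -0.46 ± 0.33 there (adjusted p = 0.996).

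Of the basement membrane collagens, 7 of 8 lay above 0 at 10 mg/m3 on day 1 and 6 of 8 below 0 at 30 mg/m3 on day 1, with class medians of 0.17 and -0.33 on the log2 scale. Over all genes the medians were -0.0095 and 0.024, and 48.4% and 55.1% of genes lay above 0. Without rat 27, 5 of 8 lay above 0 at 10 mg/m3, with a class median of 0.055, and the median of all 34 collagens was -0.025, against 0.10 with this rat. Col4a1 stood at 2811, 1498, 1581, 1299 and 1413 CPM in dust rats of the 10 mg/m3 study, against 1274, 1113, 1279, 1254 and 1785 CPM in air rats. Rat 27 was highest among dust rats and rat 21, at 1785 CPM, among air rats. The difference was 0.36 ± 0.20 (adjusted p = 0.348), and 0.11 without rat 27. Col4a2, which pairs with it in the trimer, differed by 0.41 ± 0.18 (adjusted p = 0.228), and by 0.17 without rat 27. Col4a3, a chain of the alveolar type IV trimer, differed by 0.18 (adjusted p = 0.512), and by -0.000755 without this rat.

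At 30 mg/m3 on day 1, Col4a1 was at 901, 716, 1080.2, 1085, 714 and 807 CPM in dust rats, against 1214, 929.7, 965, 586, 1713 and 1648 CPM in air rats 49, 51, 52, 53, 54 and 55. Rats 54 and 55 lay well above every dust rat and rat 53 below all of them. The difference was -0.41 ± 0.19 for Col4a1 (95% interval -0.81 to -0.016; adjusted p = 0.315), -0.42 ± 0.19 for Col4a2 (adjusted p = 0.300) and -0.32 ± 0.19 for Col4a3 (adjusted p = 0.384). Without air rats 51 and 53, the 2 lowest of their group for Col4a1, 4 collagens passed and all 4 fell in dust rats, while 5.56% of all genes passed. They were Col3a1 at -0.40 (adjusted p = 0.0193), Col4a1 at -0.65 (0.0348), Col4a2 at -0.66 (0.0321) and Col4a3 at -0.58 (0.0457). The call therefore turned on which air rats were kept. Rats 54 and 55, highest for Col4a1, also had the highest sums of endothelial markers, 2777 and 2738 CPM, against 1884 to 2035 CPM in the 6 dust rats and 1894 to 2255 CPM in the other air rats. Alveolar type 1 markers were highest in them too, at 3527 and 3611 CPM, against 2537 to 2855 CPM in dust rats and 2567 to 3063 CPM in the other air rats, as were pericyte markers, at 522 and 525.8 CPM, against 352 to 469.9 and 318 to 508 CPM. Smooth muscle markers were lowest in these rats, at 902 and 928 CPM, against 998 to 1453 CPM in dust rats and 1036 to 1455 CPM in the other air rats. Fibroblast markers, at 489 and 503 CPM, and heart muscle markers, at 128 and 122 CPM, were lowest in them as well. The part of these cell types in the difference was not tested.

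Other members of the class gave no call on later days. Col4a1 differed by 0.13 ± 0.20 and -0.045 ± 0.23 at 10 mg/m3 and by -0.076 ± 0.19 and -0.12 ± 0.19 at 30 mg/m3 on days 7 and 27. The adjusted p values were 0.996, 0.9997, 0.968 and 0.980. Col4a5 was at 442, 449.5, 417, 402 and 397 CPM in dust rats of day 7 at 10 mg/m3, against 366, 413, 413, 348 and 362 CPM in air rats, with the groups overlapping (log2 difference 0.15 ± 0.065, adjusted p = 0.996). Col18a1 was at 35.6 to 54.1 CPM in dust rats and 30.3 to 74.1 CPM in air rats on day 1 at 30 mg/m3.

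**Figure D3:**
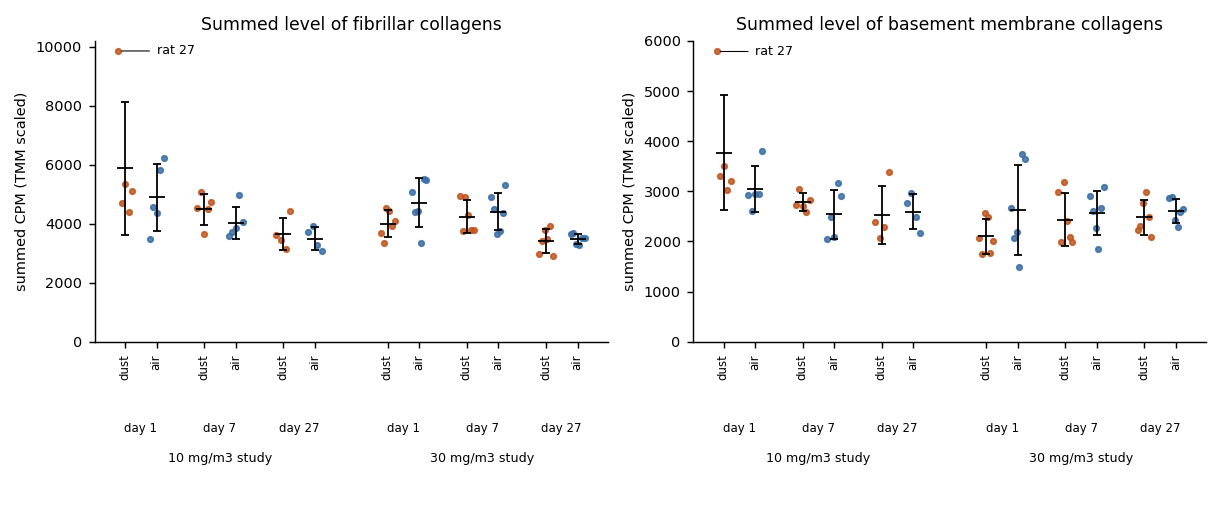
Summed level in CPM (vertical axis) of the 11 fibrillar collagens (left panel) and the 8 basement membrane collagens (right panel) in every rat, dust (orange) and air (blue) by day and study, with mean and SD. Rat 27 stands above the other dust rats of day 1 at 10 mg/m3 in both panels, at 9865 and 5790.4 CPM.

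Among the remaining collagens, the transmembrane Col17a1, an anchor of basal epithelial cells in hemidesmosomes, the transmembrane Col13a1 and Col20a1 stood first by p at 10 mg/m3 on day 1. Col17a1 was at 16.6, 13.8, 14.4, 12.5 and 11.1 CPM in dust rats on day 1, against 7.22, 8.06, 9.48, 5.49 and 14.96 CPM in air rats. Of the 5 air rats, 4 lay below every dust rat and rat 21 lay above 4 of them. The log2 difference was 0.57 ± 0.18 (edgeR adjusted p = 0.106). Without rat 21 it was 0.84 (adjusted p = 0.00198). Col13a1, found at cell contacts with the matrix, was at 222, 143, 137, 138 and 135 CPM in dust rats, against 69.7, 75.04, 103, 103 and 193 CPM in air rats. Its difference was 0.50 ± 0.20 (adjusted p = 0.183), and without rat 21 it was 0.81 (0.00390). Without rat 21, 2 collagens thus passed on that day, beside 7.34% of all genes.

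Col20a1, a fibril-associated collagen, lay lower in dust rats on day 1 at 10 mg/m3 and higher on day 27 at 30 mg/m3, and passed in neither. It was at 18.5, 12.6, 11.7, 11.6 and 13.3 CPM in dust rats, against 22.3, 13.7, 18.1, 18.9 and 19.2 CPM in air rats on day 1 at 10 mg/m3 (-0.48 ± 0.15, adjusted p = 0.111). On day 27 at 30 mg/m3 it was at 14.2 to 24.4 (median 17.9) CPM in dust rats and 13.9 to 17.2 (median 15.2) CPM in air rats (0.29 ± 0.11, adjusted p = 0.513). Over the 3 days at 30 mg/m3 it differed by 0.15 ± 0.062 (adjusted p = 0.192).

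Col12a1 differed by -0.13 ± 0.056 over the 3 days at 10 mg/m3 (adjusted p = 0.515) and by -0.15 ± 0.060 at 30 mg/m3 (adjusted p = 0.198). On day 27 at 10 mg/m3 it was at 369, 362, 372 and 379.9 CPM in dust rats, against 387, 486, 385 and 457 CPM in air rats. Every dust rat lay below every air rat there, at a difference of -0.21 ± 0.10 and an edgeR adjusted p of 0.9997. The comparison called 0% of all genes. How many of all genes separated in this way was not counted, so the separation cannot be read as a trait of Col12a1. Col14a1 was at 66.2 to 81.8 (median 75.9) CPM in dust rats on day 1 at 30 mg/m3 and at 78.5 to 97.3 (median 89.6) CPM in air rats, a difference of -0.23 ± 0.099 (adjusted p = 0.297).

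Further genes named for the smallest p of their comparison did not pass. Col19a1, a rare fibril-associated collagen, differed by 0.64 ± 0.28 at 30 mg/m3 on day 7 (adjusted p = 0.959), beside Col12a1 at -0.17 ± 0.10 and Col5a2 at 0.10 ± 0.074, both at an adjusted p of 0.959. At 10 mg/m3 on day 27, Col6a6, a beaded filament chain, differed by 0.36 ± 0.17 and Col8a1 by -0.49 ± 0.26, each at an adjusted p of 0.9997. Col6a5, the type VI chain with the most reads after Col6a3, was at 459.9 to 535 (median 500.1) CPM in dust rats and 483 to 689 (median 591) CPM in air rats on day 27 at 30 mg/m3. Its difference was -0.25 ± 0.12 (adjusted p = 0.672). Over the 3 days, Col9a2, a cartilage-type fibril-associated chain, differed by 0.33 ± 0.19 at 10 mg/m3 (adjusted p = 0.576), and Col7a1, the anchoring fibril collagen under epithelia, by 0.24 ± 0.099 at 30 mg/m3 (adjusted p = 0.203). Col17a1 differed by 0.19 ± 0.10 over the 3 days at 10 mg/m3 (adjusted p = 0.564).

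The main chains of types I, III and IV did not pass over the 3 days together either. At 10 mg/m3 Col1a1 differed by 0.39 ± 0.23 (edgeR adjusted p = 0.594), Col3a1 by 0.15 ± 0.098 (0.624) and Col4a1 by 0.15 ± 0.12 (0.690), and without rat 27 by 0.15, 0.075 and 0.066. At 30 mg/m3 they differed by -0.18 ± 0.12 (0.425), -0.12 ± 0.059 (0.284) and -0.20 ± 0.11 (0.339). In the test of whether the dust effect depended on the day, the smallest p at 10 mg/m3 belonged to Col20a1, Col17a1 and Col4a4 (adjusted p = 0.655, 0.655 and 0.684), and at 30 mg/m3 to Col11a2, Col19a1 and Col14a1 (0.477, 0.952 and 0.981).

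The levels of rat 27 set much of the 10 mg/m3 result on day 1. In this rat 29 of the 34 tested collagens lay above all 4 other dust rats of its group, while 37.99% of all genes tested did so, and the median ratio to the mean of the others was 1.51 for collagens and 0.986 for all genes. Col5a1, a type V chain, was at 423 CPM in rat 27 and at 142 to 165 CPM in the other 4, and Col1a1 was at 2117 CPM and 424 to 570.0 CPM. Summed markers of pericytes were at 890.2 CPM in rat 27 and 386 to 486 CPM in the others, those of smooth muscle at 1808 and 947 to 1139 CPM, and those of endothelium at 3339 and 2190.1 to 2465 CPM. Fibroblast markers, at 564 CPM, lay within the range of the others, 539 to 678 CPM. Alveolar type 2 markers were lower, at 10473 CPM against 14125 to 15498 CPM. The part of these cell types and of the low depth in the collagen levels of this rat was not tested.

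The dust effect over the 3 days was also compared between 30 and 10 mg/m3 in a fit of all 64 libraries. No collagen passed (0 of 35, beside 2.09% of all genes; 6 at an unadjusted p under 0.05, beside 22.4%, and 0 by DESeq2). All 8 basement membrane collagens lay below 0, with a median of -0.19, while 53.6% of all genes lay above 0. Without rat 27 all 8 still did, with a median of -0.12. The smallest p belonged to Col20a1, whose effect was 0.30 ± 0.11 higher at 30 mg/m3 (adjusted p = 0.0939), Col13a1 at -0.44 ± 0.18 (0.127) and Col4a2 at -0.40 ± 0.16 (0.131). Col1a1 gave -0.57 ± 0.25 (0.167), Col3a1 -0.26 ± 0.11 (0.152) and Col4a1 -0.35 ± 0.17 (0.214). Without rat 27 they gave -0.33 (0.367), -0.19 (0.270) and -0.27 (0.356), so each of these type I, III and IV chains had a lower estimate at 30 than at 10 mg/m3 with and without this rat. Without air rats 51 and 53, Col20a1 and Col4a2 passed, at 0.33 and -0.48 (adjusted p = 0.0421 and 0.0394), beside 8.80% of all genes. Leaving out air rat 21 of day 1 gave a call for Col13a1 (adjusted p = 0.0336), and leaving out air rat 3 of day 27 at 10 mg/m3 one for Col20a1 (0.0387).

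More collagens passed between days than between dust and air. To follow them in 1 comparison, day 27 was set against day 1 as the mean of the 4 arms, dust and air of both studies, a comparison added after the data were seen. Of 35 collagens, 7 rose and 5 fell by day 27 (edgeR, Benjamini-Hochberg adjusted p under 0.05), beside 20.5% and 19% of all genes, 39.5% together. The 12 of 35 thus lay near the share of all genes. Without air rats 51 and 53 the count was 14, and without rat 27 it was 13. Shares of all genes called in these runs are not given here, so the change in count cannot be read as a result about collagens. The 5 that fell were the fibrillar chains Col3a1, Col1a1 and Col5a2, the type IV chain Col4a5 and the fibril-associated Col14a1. The 7 that rose were the type VI chains Col6a5 and Col6a4, the transmembrane Col13a1 and Col17a1, and the sparse Col11a2, Col27a1 and Col9a2. The median of the 9 fibrillar collagens was -0.17, that of the 8 basement membrane collagens -0.057 and that of the 18 others 0.12, against 0.0060 over all genes.

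Arm by arm, day 27 against day 1 called different numbers of collagens. Dust rats at 30 mg/m3 had 7 that rose and 1, Col3a1, that fell, where 17% of all genes rose and 17.3% fell (34.3% in all). Air rats at 30 mg/m3 had Col6a5 and Col17a1, which rose, and Col3a1, Col14a1 and Col5a2, which fell, beside 5.55% and 7.36% of all genes (12.9% in all). Dust rats at 10 mg/m3 had 2 that fell, Col3a1 and Col4a5, and none that rose, beside 0.791% and 1.54% (2.34% in all). Air rats there had Col17a1, which rose, and Col4a5, which fell, beside 2.08% and 0.894% (2.97% in all). The 7 that rose in dust rats at 30 mg/m3 included Col18a1, at 53.96 to 73.2 CPM on day 27 and 35.6 to 54.1 CPM on day 1 (0.53 ± 0.17, adjusted p = 0.0167). They also included Col4a3, a chain of the alveolar and glomerular type IV trimer, whose 6 day 27 values, 167 to 242 CPM, lay above the 6 of day 1, 99.9 to 161 CPM (0.49 ± 0.19, 0.0403). How many of all genes separated by day in this way was not counted, so separation cannot be read as a trait of Col4a3. The same holds for the separations of Col3a1, Col14a1, Col4a5 and Col6a5 below. Col13a1, Col11a2, Col17a1, Col20a1 and Col16a1, a fibril-associated collagen, were the other 5 of these 7, at 0.80 ± 0.21, 0.79 ± 0.22, 0.56 ± 0.18, 0.31 ± 0.11 and 0.40 ± 0.15. With 1 library left out at a time these counts ran from 4 to 12 in dust rats at 30 mg/m3, with 4 without rat 61 or 92. Of the genes called there, Col13a1, Col11a2 and Col18a1 passed in all 12 runs, Col17a1 in 10, Col3a1 and Col20a1 in 9, Col4a3 in 5 and Col16a1 in 4. In air rats at 30 mg/m3 they ran from 3 to 6, with 3 without rat 49, 81, 82 or 85, and Col17a1 passed in 5 of 12 runs. At 10 mg/m3 the count in dust rats was 5 without rat 27, 4 without rat 16, 1 without rat 15 and 0 without rat 13 or 14. In air rats it was 3 without rat 21, 0 without rat 18, and 1 without rat 1, 3, 5, 6, 19 or 20, with Col17a1 past the threshold in 1 of 9 runs. Shares of all genes called with 1 library left out are not given here, so these counts cannot be read as a result about collagens. Without air rats 51 and 53, 8 collagens passed in air rats at 30 mg/m3, 4 of them among the 5 above, beside 6.67% of all genes.

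Col3a1 fell by 0.53 ± 0.069 on the log2 scale (adjusted p = 5.25e-08). The change was -0.73 ± 0.17 in dust rats at 10 mg/m3, -0.56 ± 0.17 in air rats at 10 mg/m3, -0.30 ± 0.10 in dust rats at 30 mg/m3 and -0.53 ± 0.10 in air rats at 30 mg/m3. It passed in dust rats at 10 mg/m3 (adjusted p = 0.0270), in dust rats at 30 mg/m3 (0.0209) and in air rats at 30 mg/m3 (0.00131), and gave 0.0729 in air rats at 10 mg/m3. In dust rats of the 10 mg/m3 study, the 4 rats of day 27, at 2132 to 3143 CPM, all lay below the 5 of day 1, at 3275 to 6514 CPM. Without rat 27 its change in that arm was -0.52 (adjusted p = 0.0382). Over the mean of 4 arms it passed whichever of the 42 libraries was left out, with changes of -0.56 to -0.48.

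Col1a1 fell by 0.44 ± 0.16 over the 4 arms (adjusted p = 0.0218), with rat 27 among the day 1 libraries. Without rat 27 the change was -0.27 and no longer passed (adjusted p = 0.0877). Its change was -1.01 ± 0.42 in dust rats at 10 mg/m3 (-0.28 without rat 27), -0.51 ± 0.42 in air rats at 10 mg/m3, -0.010 ± 0.21 in dust rats at 30 mg/m3 and -0.25 ± 0.21 in air rats at 30 mg/m3, and it passed in none of the arms alone, at adjusted p values of 0.199 to 0.980. Col5a2 fell by 0.17 ± 0.042 (adjusted p = 7.90e-04) and passed on its own in air rats at 30 mg/m3, where it was at 455 to 485 CPM on day 27 and 472 to 619.7 CPM on day 1 (-0.23 ± 0.074, adjusted p = 0.0358). That call held in 2 of 12 runs with 1 library left out, with adjusted p values of 0.0301 to 0.114. Col14a1 fell by 0.23 ± 0.080 (adjusted p = 0.0199), and in air rats at 30 mg/m3 its 6 day 27 values, 57.5 to 74.2 CPM, all lay below the 6 of day 1, 78.5 to 97.3 CPM (adjusted p = 0.00372).

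Col4a5 fell by 0.27 ± 0.039 (adjusted p = 2.74e-07), with changes of -0.39 ± 0.069 in dust rats at 10 mg/m3, -0.37 ± 0.069 in air rats at 10 mg/m3, -0.18 ± 0.081 in dust rats at 30 mg/m3 and -0.17 ± 0.081 in air rats at 30 mg/m3. In the 10 mg/m3 study the days separated in both arms, and how many of all genes did so was not counted. Dust rats of day 27 were at 336, 328, 355 and 379.9 CPM, against 479.8, 437, 451, 455 and 464 CPM in dust rats of day 1 (adjusted p = 0.00914). Air rats of day 27 were at 349, 353, 322 and 369.5 CPM, against 437, 444, 429.9, 491 and 448 CPM in air rats of day 1 (adjusted p = 0.00884). In the 30 mg/m3 study neither arm passed alone, at 0.0805 in dust rats and 0.145 in air rats. None of the other 7 basement membrane collagens passed over the 4 arms with all libraries. Without air rats 51 and 53, 2 of the 8 passed and both fell, with the share of all genes in that run not given here.

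Of the collagens that rose, Col6a5 changed by 0.40 ± 0.068 (adjusted p = 5.90e-06) and Col6a4, a type VI chain with far fewer reads, by 0.63 ± 0.16 (adjusted p = 0.00101). The Col6a5 change was 0.46 ± 0.14 in dust rats at 10 mg/m3, 0.27 ± 0.14 in air rats at 10 mg/m3, 0.27 ± 0.12 in dust rats at 30 mg/m3 and 0.58 ± 0.13 in air rats at 30 mg/m3. In air rats at 30 mg/m3 the 6 rats of day 27, at 483 to 689 CPM, all lay above the 6 of day 1, at 323 to 457 CPM (adjusted p = 0.00340). The 4 dust rats of day 27 at 10 mg/m3, at 549.6 to 733 CPM, likewise lay above the 5 of day 1, at 407 to 508 CPM, with an adjusted p of 0.0667. Col6a5 thus did not pass in that arm, and how many of all genes separated there was not counted. The main type VI chains Col6a1, Col6a2 and Col6a3 did not pass over the 4 arms, at -0.021 ± 0.066, 0.13 ± 0.091 and 0.021 ± 0.063. Whether their changes differed from those of Col6a5 and Col6a4 was not tested.

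Col13a1 rose by 0.48 ± 0.11 (adjusted p = 3.80e-04) and Col17a1 by 0.42 ± 0.095 (adjusted p = 3.90e-04). Their changes were uneven between arms. Col17a1 gave -0.15 ± 0.18 in dust rats at 10 mg/m3, 0.65 ± 0.18 in air rats at 10 mg/m3, 0.56 ± 0.18 in dust rats at 30 mg/m3 and 0.58 ± 0.18 in air rats at 30 mg/m3. Col13a1 gave -0.010 ± 0.21 in dust rats at 10 mg/m3, 0.52 ± 0.21 in air rats at 10 mg/m3, 0.80 ± 0.21 in dust rats at 30 mg/m3 and 0.59 ± 0.20 in air rats at 30 mg/m3. In dust rats at 10 mg/m3, Col17a1 was at 10.3 to 13.2 CPM on day 27 and 11.1 to 16.6 CPM on day 1, and Col13a1 at 128 to 184 and 135 to 222 CPM. Without rat 27 the Col13a1 change in that arm was 0.15. Within the 10 mg/m3 study, the test of whether the dust effect depended on the day gave an adjusted p of 0.655 for Col17a1 and 0.800 for Col13a1, and a difference over all 4 arms was not tested. The sparse genes that completed the list were Col11a2 at 0.38 ± 0.14 (adjusted p = 0.0283), Col27a1 at 0.37 ± 0.13 (0.0258) and Col9a2 at 0.36 ± 0.14 (0.0382). Leaving out 1 library at a time, they passed in 34, 38 and 27 of 42 runs.

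**Figure D4:**
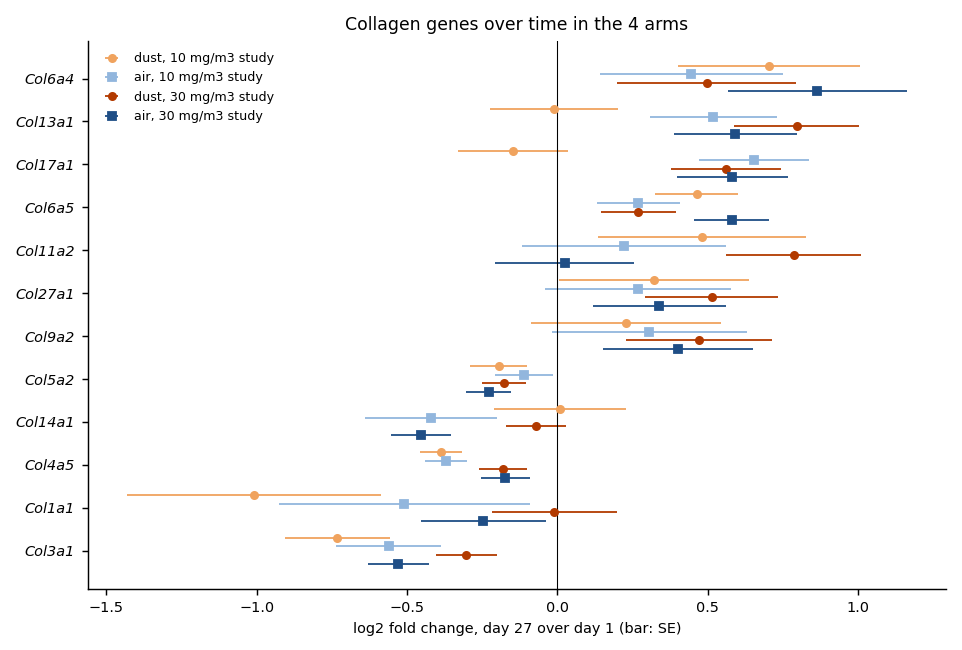
Log2 fold change of day 27 over day 1 (horizontal axis, with a bar for the SE) of the 12 collagens that passed over the mean of the 4 arms, for dust and air rats of each study. Col3a1, Col5a2 and Col4a5 lie below 0 in all 4 arms and Col6a4 and Col6a5 above it, while Col13a1 and Col17a1 are near 0 or below in dust rats at 10 mg/m3.

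By day 7, Col6a5 and Col6a3 of type VI and Col7a1 of the anchoring fibrils stood higher than on day 1. Over the mean of the 4 arms, 6 of 35 collagens rose and 2 fell against day 1, beside 12.9% and 10.3% of all genes, 23.3% together. Col6a5 rose by 0.35 ± 0.066 (adjusted p = 6.85e-05), Col6a3 by 0.28 ± 0.061 (6.28e-04) and Col7a1 by 0.50 ± 0.12 (0.00125). Col12a1, Col20a1 and Col27a1 rose by 0.19 ± 0.051, 0.23 ± 0.064 and 0.35 ± 0.13. Col3a1 fell by 0.22 ± 0.066 (0.0107), with -0.44 ± 0.16 in dust rats at 10 mg/m3 (-0.23 without rat 27), -0.39 ± 0.16 in air rats at 10 mg/m3, 0.085 ± 0.10 in dust rats at 30 mg/m3 and -0.14 ± 0.10 in air rats at 30 mg/m3, so the arm that did not lie below 0 was dust at 30 mg/m3. Col15a1, whose level swung widely between rats, gave -1.25 ± 0.46 (0.0413), and passed in 28 of 44 runs with 1 library left out. Col27a1 passed in 20 of them and the other 6 genes in 44. Without air rats 51 and 53, 6 collagens rose and 4 fell over the 4 arms, and 3 of those that fell were basement membrane collagens. The share of all genes in that run is not given here.

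Within arms, calls on day 7 were made at 10 mg/m3. Dust rats had 4 collagens that rose and none that fell, where 7.70% of all genes rose and 4.07% fell (11.8% in all). They were Col6a3, at 1078, 1219, 1024, 1162 and 1060.3 CPM on day 7 and 1045, 745, 841, 819 and 825 CPM on day 1 (0.38 ± 0.10, adjusted p = 0.0198), and Col12a1, Col20a1 and Col6a5, at 0.31 ± 0.094, 0.50 ± 0.15 and 0.40 ± 0.13. Air rats had Col6a5, which rose by 0.48 ± 0.13, and Col4a5, which fell by 0.24 ± 0.065, beside 3.53% and 2.37% of all genes (5.90% in all). At 30 mg/m3 the counts were 0 in both arms by edgeR and by DESeq2, beside 0% of all genes in dust rats and 0.116% in air rats, with 2 and 4 collagens at an unadjusted p under 0.05, beside 11.9% and 12%. The smallest p there belonged to Col14a1, Col19a1 and Col6a5 in dust rats (0.27 ± 0.099, 0.58 ± 0.29 and 0.25 ± 0.12, adjusted p = 0.316 to 0.427) and to Col7a1, Col17a1 and Col20a1 in air rats (0.51 ± 0.17, 0.44 ± 0.18 and 0.25 ± 0.11, adjusted p = 0.215 to 0.333). In dust rats at 10 mg/m3 the count was 8 without rat 27, 2 without rat 31, 32 or 43, 1 without rat 30 or 45 and 0 without rat 29 or 47, and Col6a3 passed in 7 of 10 runs and each of the other 3 genes in 2 or 3. In air rats it was 5 without rat 17, 4 without rat 21, 1 without rat 19, 34, 37 or 39 and 0 without rat 18 or 20. For these runs too, shares of all genes called are not given, so the counts cannot be read as a result about collagens.

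Genes that serve collagen outside the family were described from 4 lists. By day 27 over the 4 arms, the list of folding and processing had 1 gene that rose and 8 that fell of 20 tested, with a median of -0.11, where 20.5% of all genes rose and 19% fell with a median of 0.0060. The 9 of 20 called lay near the 39.5% called over all genes, but 8 of them fell, beside 19% of all genes. Whether genes of the lists fell more often than all genes was not tested. Ppib, a prolyl isomerase of the endoplasmic reticulum, fell by 0.32 ± 0.050 (edgeR adjusted p = 1.48e-06), Plod2, a lysyl hydroxylase, by 0.33 ± 0.054 (3.50e-06), and Adamts2, which cuts the amino propeptide from procollagen, by 0.40 ± 0.066 (4.26e-06). The list of cross-linking and fibril assembly had 2 that rose and 7 that fell of 15, with a median of -0.22, beside the same shares of all genes (39.5% called). Loxl2, a lysyl oxidase that cross-links collagen, fell by 0.66 ± 0.062 (5.26e-12). Thbs2, a matrix glycoprotein needed for regular fibrils in mice, fell by 0.65 ± 0.077 (4.08e-09), and Postn, which binds collagen and other matrix proteins, by 0.39 ± 0.061 (1.34e-06). Of the fibrillar collagens, 3 fell and 2 rose in the same comparison, as given above.

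Degradation genes had 2 that rose and 3 that fell of 11, with a median of -0.0034, again beside 39.5% of all genes called. Mmp2, a gelatinase, fell by 0.25 ± 0.042 (adjusted p = 5.30e-06), its membrane-bound activator Mmp14 by 0.28 ± 0.059 (1.90e-04), and Ctsk, a collagen-cutting cathepsin, by 0.39 ± 0.098 (0.00107). Collagen receptors had 2 that rose and 2 that fell of 8, beside 20.5% and 19% of all genes. Itga2 fell by 0.49 ± 0.068 (1.91e-07) and Itgb1, the beta chain it pairs with, by 0.12 ± 0.031 (0.00127), while Itga1, another alpha chain of a collagen-binding integrin, rose by 0.17 ± 0.045 (0.00252). On day 7, 5 of 20 folding genes and 3 of 15 cross-linking genes fell over the 4 arms and none of either list rose, while 1 rose and 1 fell in each of the other 2 lists. Over all genes 12.9% rose and 10.3% fell, 23.3% together. The 5 of 20 and 3 of 15 lay near that 23.3%, but all were falls, to be set beside the 10.3% that fell. Whether genes of these lists fell more often than all genes was not tested. In the 6 comparisons of dust with air none of the genes of the 4 lists passed, and in the comparison of doses Timp2, an inhibitor of matrix metalloproteinases, did (-0.22 ± 0.064, adjusted p = 0.0496).

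Markers of other cells moved over the same days and are given beside these changes. By day 27 over the 4 arms, 20.5% of all genes rose and 19% fell, and the markers are to be read against that. All 6 proliferation markers fell, from Cdc20 at -0.47 ± 0.081 to Cdk1 at -0.83 ± 0.11. Their sum was 61.9 to 88.6 CPM on day 27 and 72.05 to 96.7 CPM on day 1 in dust rats at 10 mg/m3, and 52.1 to 80.8 and 83.5 to 136 CPM in their air rats. At 30 mg/m3 it was 63.02 to 141 and 95.9 to 247 CPM in dust rats, and 60.6 to 104 and 111 to 149.8 CPM in air rats. Of the 6 fibroblast markers tested, Pdgfra and Fgf10 rose (0.39 ± 0.045 and 0.29 ± 0.12) and Lum, also in the list of fibril assembly, fell (-0.58 ± 0.091). Of the smooth muscle markers, 2 of 6 rose, Myh11 by 0.45 ± 0.076 and Acta2 by 0.39 ± 0.14. Endothelial Vwf and Tek rose (0.43 ± 0.097 and 0.17 ± 0.033), and alveolar type 2 Lamp3 and Sftpc fell (-0.28 ± 0.062 and -0.19 ± 0.059). Further single genes passed, with pericyte Cspg4 and alveolar type 1 Aqp5 higher (0.28 ± 0.083 and 0.27 ± 0.068) and mesothelial Msln lower (-0.52 ± 0.16), and none of 8 heart muscle markers did. In the 6 comparisons of dust with air, the heart muscle genes Ryr2 and Ttn fell at 30 mg/m3 on day 7 (-2.50 ± 0.49 and -2.09 ± 0.42) and no other listed marker passed. The part of these cell types in the collagen changes was not tested.

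Type IV collagen chains are coded by 3 gene pairs, each pair lying head to head so that its 2 genes are read away from a common stretch of DNA. The start windows of the first 2 pairs are shown because the windows of these partners overlap. RefSeq windows of the GRCr8 assembly, 250 bases before to 50 after a gene's start, were found for 35 of the 44 collagens by symbol. The counts were made on another assembly, Rnor_6.0. Col4a1 lies at chr16:84885347-84885646 on the plus strand and Col4a2 at chr16:84885471-84885770 on the minus strand. Their starts are 77 bases apart, and their windows share 176 bases. Col4a3 lies at chr9:91323740-91324039 on the plus strand and Col4a4 at chr9:91323528-91323827 on the minus strand, with starts 413 bases apart and 88 shared bases. For Col4a5 and Col4a6 on chromosome X the starts are 1415 bases apart and the windows share 0 bases. Each window is written 5′ to 3′ on the strand of its gene, and capitals mark the bases that it shares with the window of its partner.
Col4a1: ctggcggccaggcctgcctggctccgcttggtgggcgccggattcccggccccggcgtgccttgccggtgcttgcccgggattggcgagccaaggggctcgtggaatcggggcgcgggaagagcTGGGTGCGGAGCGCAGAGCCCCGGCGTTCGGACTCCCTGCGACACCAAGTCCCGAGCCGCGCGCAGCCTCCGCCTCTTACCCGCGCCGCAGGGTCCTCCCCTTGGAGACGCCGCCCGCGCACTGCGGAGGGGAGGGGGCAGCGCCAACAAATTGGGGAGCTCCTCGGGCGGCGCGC
Col4a2: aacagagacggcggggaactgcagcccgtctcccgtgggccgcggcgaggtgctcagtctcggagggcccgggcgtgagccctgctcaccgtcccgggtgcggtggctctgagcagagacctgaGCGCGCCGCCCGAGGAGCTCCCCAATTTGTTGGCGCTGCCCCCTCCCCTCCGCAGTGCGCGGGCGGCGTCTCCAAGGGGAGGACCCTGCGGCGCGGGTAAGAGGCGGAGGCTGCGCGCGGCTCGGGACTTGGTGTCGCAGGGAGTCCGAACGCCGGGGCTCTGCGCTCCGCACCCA
Col4a3: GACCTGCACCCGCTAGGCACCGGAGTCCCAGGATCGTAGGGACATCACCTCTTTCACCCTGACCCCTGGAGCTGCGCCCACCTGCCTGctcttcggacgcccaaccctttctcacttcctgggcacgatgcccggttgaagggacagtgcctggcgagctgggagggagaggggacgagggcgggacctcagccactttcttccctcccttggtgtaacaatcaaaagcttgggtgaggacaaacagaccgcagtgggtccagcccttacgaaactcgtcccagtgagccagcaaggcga
Col4a4: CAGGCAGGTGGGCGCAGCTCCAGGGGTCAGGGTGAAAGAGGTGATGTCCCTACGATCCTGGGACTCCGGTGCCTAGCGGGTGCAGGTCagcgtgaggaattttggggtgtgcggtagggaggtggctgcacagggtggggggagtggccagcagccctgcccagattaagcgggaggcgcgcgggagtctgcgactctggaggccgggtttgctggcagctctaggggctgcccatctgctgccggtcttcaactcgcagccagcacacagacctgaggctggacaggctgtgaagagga

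The windows were searched on both strands for GGGCGG, the core of a GC box, for CCAAT, and for TATAAA, the core of a TATA box, and no match of one overlapped a match of another. Over all 33469 RefSeq windows of this length, GGGCGG was found in 33.1%, CCAAT in 37.5% and TATAAA in 14.2%. GGGCGG had 1 match on each strand in the Col4a1 window and likewise in the Col4a2 window. These are the same 2 sites, in the bases that both windows share. CCAAT had 2 matches in the Col4a1 window, both on the strand not printed. The 1 match in the Col4a2 window is 1 of these 2, also in shared bases. Of the windows of Col4a3 and Col4a4, the first held 1 GGGCGG and the second held none of the 3 motifs. TATAAA was in none of the 4.

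Levels of these partners were compared across rats as deviations from the mean of their own group on the log2 scale, a relation examined after the data were seen. Col4a1 and Col4a2 deviated together with r = 0.98 (Pearson) and rho = 0.98 (Spearman) over 64 rats. Permuting rats within groups gave p = 1e-05, the smallest that 100000 permutations can give, for both (adjusted p = 2.14e-05 over 15 pairs). Without the 2 rats farthest from the median of Col4a1, r was 0.98, and within the studies it was 0.98 (10 mg/m3) and 0.99 (30 mg/m3). The ratio of Col4a1 to Col4a2 counts stayed between 1.21 and 1.54 in the first study and between 1.32 and 1.61 in the other. Col4a1 itself ran from 756 to 2811 CPM in the first study and from 586 to 1713 CPM in the other, over all groups. Col4a3 and Col4a4 gave r = 0.84 and rho = 0.73 (permutation p = 1e-05, adjusted p = 2.14e-05), with 0.78 without 2 rats and 0.68 and 0.90 within the studies.

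Col4a5 and Col4a6, whose starts lie farther apart, gave r = 0.62 and rho = 0.60 (permutation p = 2e-05, adjusted p = 3.33e-05 and 3.75e-05), with 0.62 without 2 rats. Within studies it was 0.25 at 10 mg/m3 and 0.77 at 30 mg/m3. Partners were not the only ones to move together, nor always the closest. Col4a2 with Col4a3 gave r = 0.84 and rho = 0.76, and Col4a1 with Col4a3 gave r = 0.82 and rho = 0.76. The partners Col4a3 and Col4a4 stood at r = 0.84 and rho = 0.73. Col4a2 with Col4a4 gave r = 0.80. Col4a4 with Col4a5 gave r = 0.68 and rho = 0.65, above the values of the partners Col4a5 and Col4a6. All 15 pairs had r above 0, from 0.48 to 0.98 (largest adjusted p = 0.00149). Col4a1 and Col4a5 gave 0.70 at 30 mg/m3 and 0.057 at 10 mg/m3. Whether pairs or studies differed in r was not tested. Pairs of other genes were not examined, so these values cannot show whether moving together is particular to type IV chains.

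**Figure D5:**
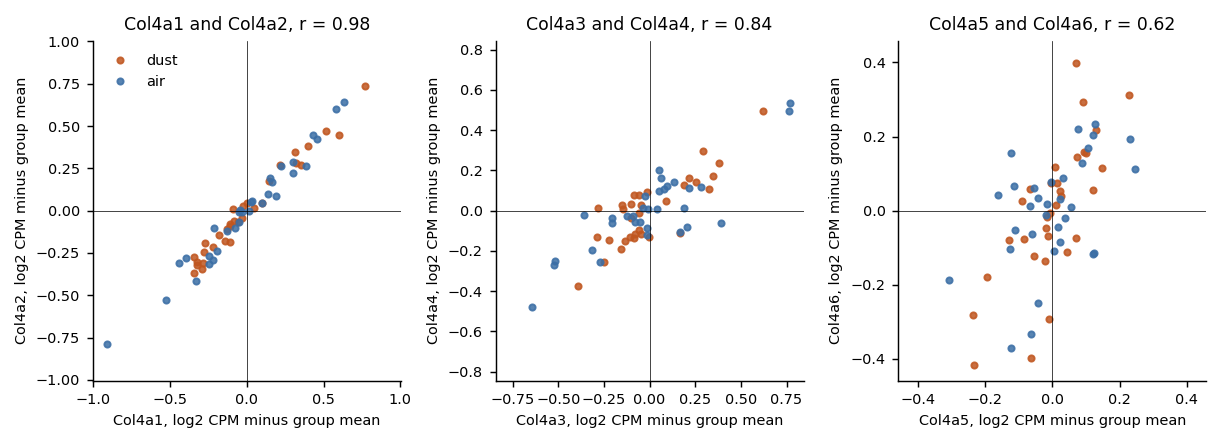
Deviation of each rat from the mean of its own group, in log2 CPM, for the 3 head-to-head pairs of type IV genes (dust orange, air blue; 64 rats in each panel). The points of Col4a1 and Col4a2 follow a line, r = 0.98, those of Col4a3 and Col4a4 scatter more, r = 0.84, and those of Col4a5 and Col4a6 most, r = 0.62.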

How the data were processed

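RNA-seq counts of reads per gene symbol were the deposited measure. The authors made them from total RNA of a lung piece, depleted of ribosomal RNA, with a stranded kit, per the labels' protocols. The submitters' processing notes name HISAT2 2.1.0 and HTSeq 0.6.1, with Trimmomatic 0.35, SAMtools 1.8 and bcl2fastq 2.19, and the build Rnor_6.0. No source used here names the gene annotation or says how counting treated strand, so reads of overlapping antisense genes cannot be told apart. Library totals ran from 3420235 to 12359518 counts, and 3625 symbols had no counts. Library titles gave study, day, rat number and treatment, which put each library in its group, and no 2 libraries of a group agreed within sampling noise (lowest chi-square per degree of freedom 2.07, of 142 pairs). The closest pairs were in air rats at 30 mg/m3, at 2.07 on day 27 and 2.88 on day 1. Such a check cannot tell 2 rats from 2 libraries of 1 lung. The sources do not say more of how rats were assigned, and p-values measure the spread between these rats. Library titles name no cage, so each rat was taken as independent of its cage mate.

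Collagen genes and gene lists were chosen with earlier results of these data known. Counts were tested with edgeR 4.0.16 in R 4.3.3 (TMM scaling, filterByExpr with a minimum count of 10 and a minimum total of 15, robust quasi-likelihood F test), in 1 fit of the 6 groups of a study over 15668 (10 mg/m3) or 15551 (30 mg/m3) genes. All 64 libraries over 16190 genes were fitted together for the difference between doses and for the means of 4 arms. Adjusted p is by Benjamini and Hochberg over all genes tested, with a threshold of 0.05. SE is the absolute log2 fold change divided by the square root of F. CPM use TMM-scaled library sizes. The scripts were tested on simulated data. Genes named are all collagens past the threshold if 12 or fewer, otherwise the 12 with the smallest p, and where none passed, the 3 with the smallest p, with Col1a1, Col3a1 and Col4a1 in each dust comparison and Col1a2 where it could be tested. Of each pathway list, the 3 genes with the smallest p among those past the threshold are named, and other list genes were named after their values were seen, as were Col4a2 and Col4a3 in the dust comparisons of day 1. Deviations for correlations are of log2(CPM + 0.5). Alternatives were RLE size factors, no filter on low counts, DESeq2 1.42.0, only the compared groups, each library left out, and air rats 51 and 53 left out.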

Additional observations from a re-analysis of the deposited data

Results flagged for a closer look

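Levels of 17 collagen genes were searched in the 12 groups for a single rat far from the rest of its group, by the gap to its nearest neighbour over the range of the group. Of 204 groups of values, 25 held such a rat. For independent and normally distributed values the rate would be about 1 in 20, or 10.2. The 17 genes were measured in the same libraries, so the 25 cannot be read as an excess over 10.2.

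Of the 25, 11 were dust rat 27 (day 1, 10 mg/m3), the shallowest library, high in each. Among fibrillar genes it had 2117 CPM of Col1a1, 6514 CPM of Col3a1 and 423 CPM of Col5a1. Among basement membrane genes it had 2811 CPM of Col4a1, 1884 CPM of Col4a2, 326 CPM of Col4a3 and 117 CPM of Col18a1. Among the others it had 802 CPM of Col6a1, 730.2 CPM of Col6a2, 424 CPM of Col12a1 and 222 CPM of Col13a1. The next rat of its group came to at most 1581 CPM for Col4a1 and 143 CPM for Col13a1.

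Dust rat 29 of the same group was low for Col14a1, at 46.99 CPM, with 71.9 to 80.8 CPM in the others. Air rat 21 of day 1 at 10 mg/m3 was high for Col4a1 and Col13a1, at 1785 and 193 CPM, with 1113 to 1279 and 69.7 to 103 CPM in the other air rats. Dust rat 16 of day 27 at 10 mg/m3 was high for Col4a3 and Col18a1, at 201 and 74.4 CPM, with 156 to 163 and 46.4 to 51.04 CPM in the others. Col15a1 stood out in dust rat 44 of day 7 (at 2.59 CPM), air rat 34 of day 7 (1.61 CPM) and air rat 5 of day 27 (6.60 CPM), all at 10 mg/m3, with at most 1.40 CPM in the rest of these groups.

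At 30 mg/m3, dust rat 60 of day 1 was high for Col17a1, at 15.3 CPM, with 5.97 to 8.76 CPM in the others, and dust rat 92 of day 27 was high for Col4a3, at 242 CPM, with 167 to 186 CPM in the others. Col8a1 was low in dust rat 79 of day 7, at 6.20 CPM, and high in air rat 70 of day 7, at 14.2 CPM. Air rat 69 of day 7 was low for Col5a2, at 395 CPM, with 498 to 546 CPM in the others, and air rat 84 of day 27 for Col5a1, at 124 CPM, with 152 to 167 CPM.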

How the results depend on the processing

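Scaling by RLE size factors, no filter and DESeq2 kept 0 calls in each comparison of dust with air. Without air rats 51 and 53 there were 4 calls for dust against air at 30 mg/m3 on day 1, 2 for the difference between doses and 8 for day 27 against day 1 in air rats at 30 mg/m3. At 10 mg/m3, air rats gave 0 calls on day 7 with only the compared groups, and on day 27 they gave 1 with RLE factors, 1 without the filter and 0 with only the compared groups. Dust rats gave 2 calls on day 7 without the filter, 7 on day 7 by DESeq2 and 4 on day 27 by DESeq2. The causes were not tested. Where no share of all genes called under the same setting is given above, these counts cannot be read as a result about collagens. The same limit applies to the counts with 1 library left out. Leaving out each library in turn gave 0 to 2 calls for dust against air at 10 mg/m3 on day 1, 0 to 1 at 30 mg/m3 on day 1, 0 to 1 for the dose difference and 0 in the other dust comparisons. Between days it gave 0 to 8 (day 7) and 0 to 5 (day 27) in dust rats and 0 to 5 and 0 to 3 in air rats at 10 mg/m3, 4 to 12 in dust rats and 3 to 6 in air rats at 30 mg/m3 on day 27, 0 on day 7, and 6 to 9 and 9 to 14 over the 4 arms on days 7 and 27. The sign of some uncalled log2 differences turned with 1 library left out. For dust against air these were Col1a1 and Col4a3 at 10 mg/m3 on day 1 (-0.067 to 0.95 and -0.000755 to 0.25), Col3a1 and Col4a1 at 10 mg/m3 on day 27 (-0.060 to 0.13 and -0.28 to 0.060), Col3a1 and Col4a1 at 30 mg/m3 on day 7 (-0.092 to 0.014 and -0.20 to 0.0066) and Col1a1 at 30 mg/m3 on day 27 (-0.12 to 0.028). Between days 27 and 1 they were Col13a1 in dust rats at 10 mg/m3 (-0.11 to 0.15) and Col1a1 in dust rats at 30 mg/m3 (-0.11 to 0.11). For the named results, each 1 gene in 1 comparison, the call changed for 1 and held for 139 with RLE factors. It changed for 10 and held for 130 without the filter, and for 5 and 135 by DESeq2. With only the compared groups it changed for 10 and held for 85. Without air rats 51 and 53 it changed for 8 and held for 48. These last settings covered fewer comparisons. No paired analysis was possible because each rat number occurs in 1 group. Collagens with few counts, such as Col15a1, Col23a1 and Col11a1, are limited by depth.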
